A study of Homo sapiens with 7 samples.

Results

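Edited line 1 is a K562 line that carries the LSD1 substitution Y391K, and its RNA was compared gene by gene with that of the parental K562 line it is set against in the study. K562 is a human chronic myelogenous leukemia line that grows in suspension and expresses fetal and embryonic globins, an erythroid trait. LSD1, encoded by KDM1A, is a demethylase that removes methyl groups from lysine 4 of histone H3, acts with the corepressor CoREST, and is recruited by GFI1 and GFI1B. In blood cells it is best known for silencing genes of other lineages, and its loss or inhibition is known to raise myeloid genes. According to the submitters, Y391K is a gain of function, being less hindered by acetylation of the histone tail.

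The parental cells (wtLSD1-GFP) carried a C-terminal GFP tag on wild-type LSD1 at every allele. Line 1 (Y391K-LSD1-GFP, edited1) carried Y391K-LSD1-GFP at 2 alleles and wtLSD1-GFP at 1, so tagged wild-type LSD1 was common to all groups. Line 1 gave 2 libraries and the parental cells 3, and these 5 of the 7 libraries of the series made up the comparison. The remaining 2 came from line 2, a second line of the same stated genotype, which served to show which changes line 1 shared. No drug or other treatment is named. The labels say neither whether a line was 1 clone nor whether its libraries were separate cultures, so p-values measure the spread between libraries, which may be technical, and line and genotype cannot be told apart.

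Poly-A RNA gave 35841302, 54666643 and 72577827 counts in parental 1 to 3 and 37150995 and 40547524 in line 1. All levels below are CPM, counts scaled to the library size after TMM normalization. KDM1A (ENSG00000004487) stood at 237, 278 and 348 CPM in parental 1 to 3, 278 and 320.1 CPM in line 1, and 244 and 318 CPM in line 2. The groups overlapped (log2 fold change 0.05 (SE 0.19), edgeR adjusted p 0.946), which checks the RNA level only, since counts per gene do not show the substitution. Most K562 markers were present in every library. HBG2 had 936, 1214 and 2221 CPM in parental 1 to 3 and 2664 and 4168 CPM in line 1. The reservation is that HBG1 and HBG2 are near-identical copies. Of the 15 K562 markers looked up, CD36 was the exception, at or below 0.0543 CPM in parental libraries, and is described below with the erythroid genes. The others stood at or above 5.54 CPM in every library. CDKN2A, which K562 lacks, had 0 counts in parental and line 1 libraries. Of 6 T cell markers only CD3D passed 1 CPM, at 2.21 to 6.06 CPM in parental and line 1 libraries, and of 6 monocyte and granulocyte markers LYZ, described below with its list, stood at 20.6 to 28.7 CPM in parental and 3.76 to 4.98 CPM in line 1 libraries, CD14 reached 0.668 CPM, and MPO, ELANE, CSF1R and FCGR3A stayed at or below 0.161 CPM. Some markers of other cell types were expressed in both groups. The epithelial marker EPCAM stood at 87.5 to 112 CPM in parental and 69.1 to 77.1 CPM in line 1 libraries. KRT19, looked up as a HEK293-type marker, stood at 71.1 to 130 CPM and 67.5 to 87.3 CPM. WT1, of the same set, stood at 15.6 to 27.5 CPM and 23.6 to 27.1 CPM. The neural marker NES is given below.

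Parental 3 stood apart from parental 1 and 2. Its log2 CPM had Pearson correlations across genes of 0.981 and 0.979 with them against 0.994 between them. Relative to their mean, heat shock genes were 0.92 and cholesterol synthesis genes 1.34 higher (mean log2 CPM) and the mitochondrially encoded genes fell by 0.95. Counts of calls are therefore also given without it.

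In the count test, more genes were lower than higher in line 1. Of 19098 genes tested, 335 (1.75%) were called, that is, edgeR's quasi-likelihood test gave a Benjamini-Hochberg adjusted p under 0.05. Of these, 242 (1.27%) were lower and 93 (0.487%) higher in line 1, and 2541 genes had an unadjusted p under 0.05. The share of higher genes among the calls, 27.8%, was 38.0% with limma-voom, 41.7% with the replicate number as a block and 38.5% with limma on log2(FPKM + 0.1), where FPKM are the authors' length-scaled values. With limma on log2(FPKM + 1) the balance turned, at 17 higher and 14 lower genes (54.8% higher). The called lower genes had a median level of 18.3 CPM in parental cells, 3.86 CPM in line 1 and 12.7 CPM in line 2. The called higher genes had medians of 1.09, 6.02 and 1.28 CPM. These levels are partly set by the selection and are no separate result. A fall can be called only from a parental level with counts to lose, and the filter by group admits genes expressed in line 1 alone. The median log2 fold changes were -2.16 for the called lower and 2.33 for the called higher genes, against -0.01 over all genes tested. At least a 4-fold change was seen in 133 of the called lower and 54 of the called higher genes, and 15 of the lower genes had 0 counts in line 1. The line 1 and parental libraries did not overlap for any called gene, against a background of 31.2% of all genes tested. A small adjusted p with so few libraries leaves little room for overlap, so this too is no separate result.

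**Figure D1:**
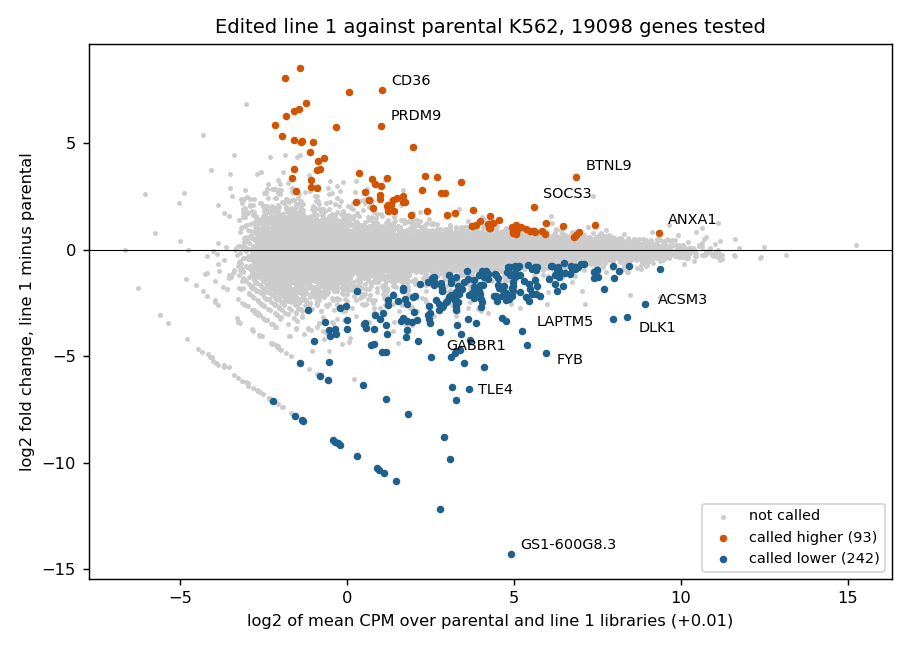
Each point is 1 of the 19098 genes tested: the horizontal axis is the log2 of its mean CPM over the 5 parental and line 1 libraries, the vertical axis its fitted log2 fold change, line 1 minus parental. The 242 called lower genes (blue) reach into high levels, where LAPTM5 and DLK1 lie, while most of the 93 called higher genes (orange) lie at low levels; points on the lower left diagonal have 0 or few counts in line 1, where the fitted value is no bound.

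The number of calls depended on single libraries. It was 931 (596 lower, 335 higher) without parental 3, 146 and 112 without parental 1 or 2, and 88 and 60 without line 1 library 1 or 2. All 335 genes were called again without parental 3. Without each library in turn, 52 genes stayed called every time, 41 lower and 11 higher. They include LAPTM5, WAS, FES, FYB, GABBR1, LYZ, CSF2RB, DLK1 and TLE4 among the falls and BTNL9, CD36, SOCS3, CT55, S1PR3, IMPA2 and KIF21A among the rises.

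Line 2 was compared in the same fit, with the same parental libraries as reference. Line 2 differed from parental cells at 1078 genes (5.64%), 259 of them higher (1.36%) and 819 lower (4.29%). Line 1 differed from line 2 at 1249 (6.54%), of which 795 (4.16%) were higher and 454 (2.38%) lower in line 1. Of the 335 genes, 182 were called line 1 only: called against parental cells and in the same direction against line 2, and not called in line 2 against parental cells. These were 132 lower (0.691% of genes tested) and 50 higher (0.262%), 54.3% of the genes called in line 1. Another 75 were called in the same direction in both lines, 58 lower (0.304%) and 17 higher (0.089%), which is 22.4% of the genes called in line 1 and 6.96% of those called in line 2. A further 24 were called in opposite directions, and 54 met none of these definitions.

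**Figure D2:**
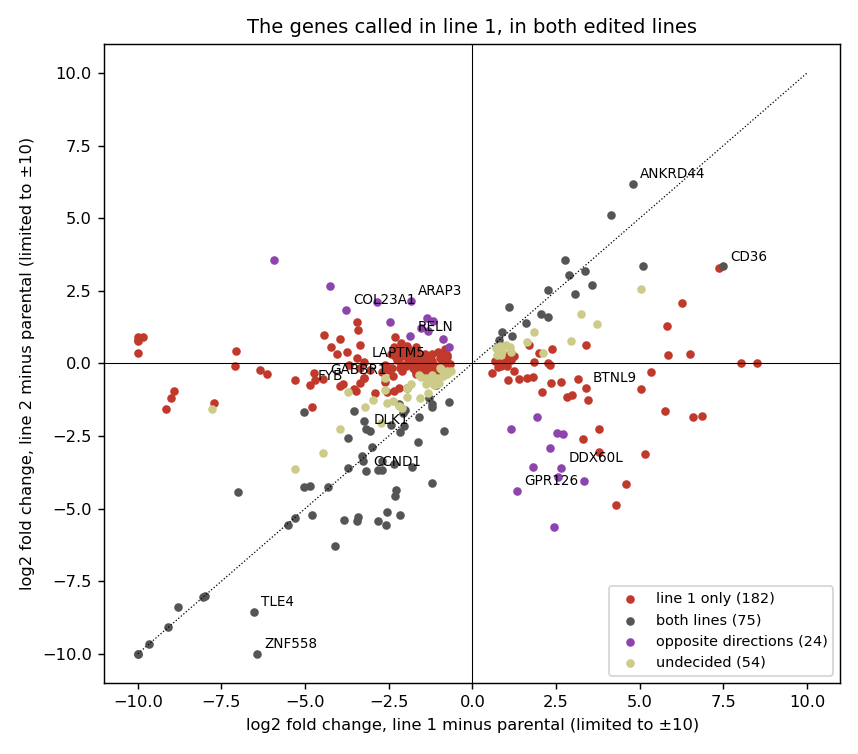
The 335 genes called in line 1, each at its log2 fold change in line 1 minus parental (horizontal) and in line 2 minus parental (vertical), both limited to ±10; the dotted line marks equal values. Both axes use the same 3 parental libraries, so the cloud is no measure of likeness; the 182 line 1 only genes lie mostly along the horizontal axis and the 24 opposite ones in the upper left and lower right.

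The changes seen in line 1 only are illustrated by the promoters of the 2 falls and 2 rises with the smallest p that are protein-coding and have an entry in the RefSeq promoter table (GRCh38.p14, 250 bases before to 50 after the start). They lie, for GABBR1 at chr6:29627964-29628263 on the minus strand, LAPTM5 at chr1:30757725-30758024 on the minus strand, BTNL9 at chr5:181040016-181040315 on the plus strand and SOCS3 at chr17:78360876-78361175 on the minus strand. Capitals mark GATAA or its reverse complement TTATC, the core read by GATA factors such as the erythroid regulator GATA1, and GGAAG or CTTCC, a core read by ETS factors, on either strand.
GABBR1: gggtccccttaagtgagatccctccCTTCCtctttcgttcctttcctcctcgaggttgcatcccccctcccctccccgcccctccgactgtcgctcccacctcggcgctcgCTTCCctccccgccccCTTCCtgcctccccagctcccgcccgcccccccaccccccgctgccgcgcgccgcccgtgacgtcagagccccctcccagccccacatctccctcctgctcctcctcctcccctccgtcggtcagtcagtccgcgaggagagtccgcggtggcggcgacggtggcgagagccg
LAPTM5: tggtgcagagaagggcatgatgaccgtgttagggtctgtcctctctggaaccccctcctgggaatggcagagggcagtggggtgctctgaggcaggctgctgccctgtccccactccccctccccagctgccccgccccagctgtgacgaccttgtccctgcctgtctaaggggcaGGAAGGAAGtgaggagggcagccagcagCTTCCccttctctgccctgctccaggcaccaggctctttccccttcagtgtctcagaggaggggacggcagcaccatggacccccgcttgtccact
BTNL9: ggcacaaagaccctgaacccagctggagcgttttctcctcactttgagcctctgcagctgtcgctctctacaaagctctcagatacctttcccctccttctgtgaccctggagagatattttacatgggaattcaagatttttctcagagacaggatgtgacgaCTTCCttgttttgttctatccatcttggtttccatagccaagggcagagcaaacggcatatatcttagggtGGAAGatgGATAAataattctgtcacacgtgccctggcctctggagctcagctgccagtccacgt
SOCS3: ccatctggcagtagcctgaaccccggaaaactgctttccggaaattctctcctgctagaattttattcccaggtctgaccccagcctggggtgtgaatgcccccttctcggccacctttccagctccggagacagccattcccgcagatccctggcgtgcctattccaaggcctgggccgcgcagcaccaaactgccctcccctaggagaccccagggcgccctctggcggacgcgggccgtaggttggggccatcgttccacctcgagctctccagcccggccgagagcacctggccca
GGAAG or CTTCC was found 3 times in each of the falling genes' promoters, 2 times in BTNL9 and 0 times in SOCS3, and 71.9% of the 27305 promoters in the table hold it. GATAA or TTATC was found once, in BTNL9, and 23.2% of promoters hold it. No 2 matches of different motifs overlapped. CpG dinucleotides numbered 29, 5, 6 and 17 in the same order, against a median of 14 and quartiles of 3 and 28 over all promoters. A match is a run of letters and not a bound site.

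The falls in line 1 only include the following genes known for their work in blood cells, picked for description after their values were seen. In bulk RNA, a lower level in every cell and fewer cells with the transcript cannot be told apart. LAPTM5 (ENSG00000162511), a lysosomal membrane protein of blood cells that limits antigen receptor signalling, had 379, 452 and 329 CPM in parental 1 to 3, 41.3 and 40.5 CPM in line 1, and 422 and 375 CPM in line 2. Every line 1 library lay far below the others and line 2 overlapped the parental range (log2 fold change -3.24 (SE 0.19), edgeR adjusted p 0.000127). WAS (ENSG00000015285), the Wiskott-Aldrich syndrome protein that starts branched actin filaments in blood cells, had 60.9, 61 and 57.7 CPM in parental 1 to 3, 13.7 and 12.1 CPM in line 1, and 75.1 and 69.5 CPM in line 2. The line 1 libraries again lay apart and line 2 sat above every parental library (log2 fold change -2.21 (SE 0.15), edgeR adjusted p 0.000283). FES, a cytoplasmic tyrosine kinase of myeloid cells, had 21.3, 24.6 and 16.7 CPM in parental 1 to 3, 1.29 and 0.940 CPM in line 1, and 39.4 and 22 CPM in line 2. Both line 1 libraries were below all others and line 2 was not below the parental range (log2 fold change -4.23 (SE 0.36), edgeR adjusted p 0.000889).

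FYB, the adaptor ADAP that couples immune receptors to integrins, had 128, 108 and 69.1 CPM in parental 1 to 3, 4.65 and 2.40 CPM in line 1, and 78.1 and 42 CPM in line 2. Line 1 was lowest and line 2 overlapped the parental libraries (log2 fold change -4.85 (SE 0.44), edgeR adjusted p 0.00145). PTPN22, a phosphatase that restrains lymphocyte receptor signalling, had 18.6, 24.2 and 4.33 CPM in parental 1 to 3, 0.619 and 0.544 CPM in line 1, and 15.9 and 9.0 CPM in line 2. Parental 3 was the lowest of its group and still above both line 1 libraries (log2 fold change -4.75 (SE 0.76), edgeR adjusted p 0.0188). KLHL6, a Kelch-family protein of B cells, fell from 42.4 ± 11.4 CPM (3 libraries, SD) to 4.15 ± 2.80 CPM (2 libraries, SD), and CORO1A, the leukocyte actin-binding protein coronin 1A, from 23 ± 10.9 CPM (3 libraries, SD) to 5.42 ± 0.740 CPM (2 libraries, SD). Their edgeR adjusted p-values were 0.0130 and 0.0449. Line 2 means were 26.7 and 34.3 CPM.

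Further line 1 only falls, also picked after their values were seen, were of genes for actin regulators and for signalling proteins. NCKAP1L, the blood-cell subunit of the WAVE actin complex, had a log2 fold change of -1.42, and DOCK2, a Rac activator of leukocytes, of -1.02. WIPF1, which binds and stabilises WAS, stood at -0.83. The kinases TEC and PTK2B stood at -1.38 and -0.89, phospholipase PLCB2 at -2.16, the adaptor DOK2 at -1.48, and the lipid phosphatase INPP5D at -0.83. The adaptor CARD9 went from 51.5 to 12.9 CPM. DOCK2 and PTK2B remained abundant, going from 356 to 175 CPM and from 132 to 70.8 CPM. Surface and signalling molecules outside the blood lineage were also among these falls. GABBR1 (ENSG00000204681), a subunit of the receptor for the transmitter GABA, had 69.7, 67.2 and 67.7 CPM in parental 1 to 3, 3.52 and 2.62 CPM in line 1, and 54.6 and 39.4 CPM in line 2. Line 1 was lower by a wide margin, and line 2 lay below the parental libraries by much less (log2 fold change -4.47 (SE 0.23), edgeR adjusted p 8.47e-05; line 2 against parental -0.54, edgeR adjusted p 0.130). FGFR1, a fibroblast growth factor receptor, had 19.8, 19.4 and 11.5 CPM in parental 1 to 3, 0.403 and 0.891 CPM in line 1, and 12.7 and 9.94 CPM in line 2. Line 1 was the lowest group (log2 fold change -4.69 (SE 0.43), edgeR adjusted p 0.00145). PLXNA2, a semaphorin coreceptor, and ESPN, an actin-bundling protein, had log2 fold changes of -3.23 and -3.97.

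**Figure D3:**
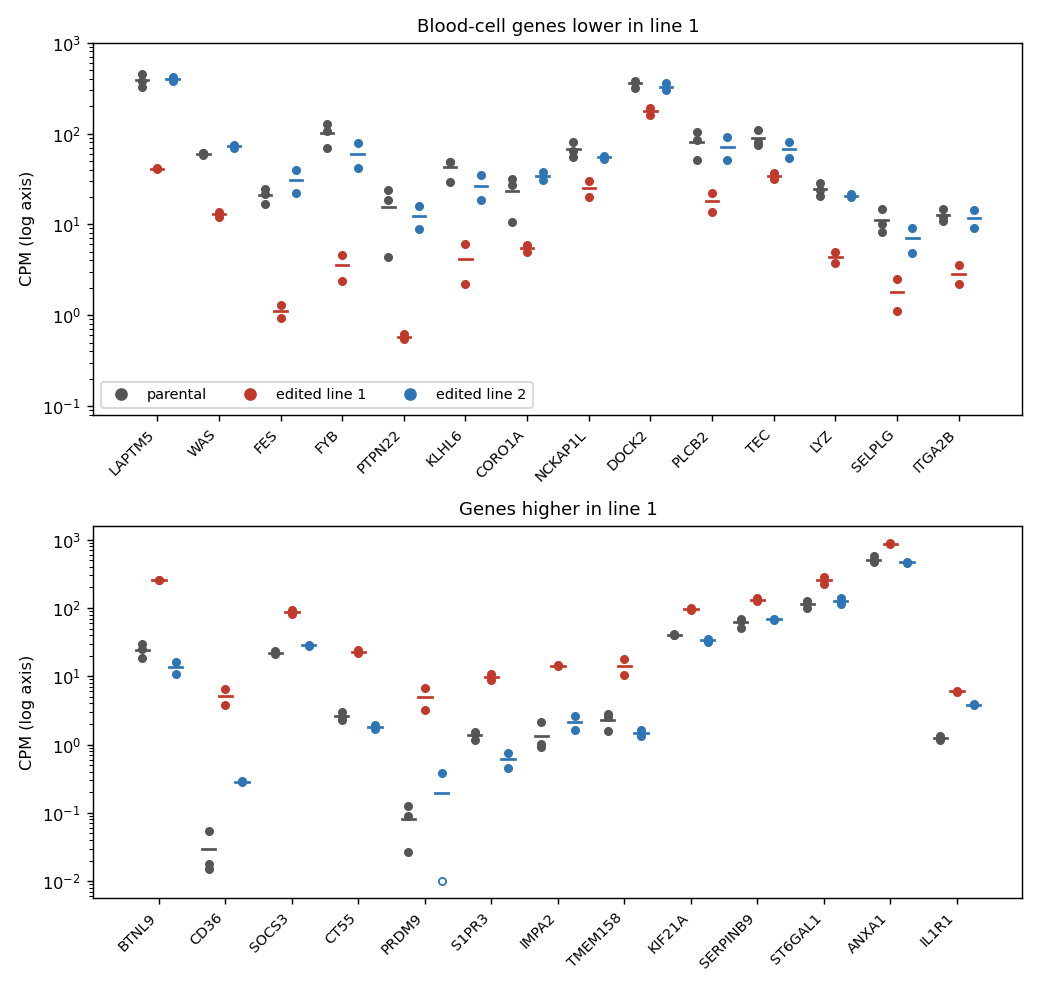
CPM on a log axis in each of the 7 libraries (points) with group means (bars) for 14 blood-cell genes called lower in line 1 and 13 genes called higher, all picked after their values were seen; the open point is 0 CPM drawn at 0.01. In the upper panel the 2 line 1 libraries lie below every parental library and every line 2 library for each of the 14 genes; in the lower panel they lie above all others for each of the 13 genes.

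The gene lists below count every gene called in line 1, whether or not the change was shared with line 2. Of 22 tested granulocyte and monocyte genes, 5 were lower and 0 higher, with a median log2 fold change of -1.86 over the tested members, against 1.27% lower and a median of -0.01 over all genes tested. Without parental 3 the count was 9 lower, while the called lower genes over all genes tested rose from 242 to 596. The 5 were LYZ, lysozyme; CSF2RB, the shared receptor chain for IL-3, IL-5 and GM-CSF; CD300A, an inhibitory receptor; NCF4, a subunit of the phagocyte oxidase; and ITGAM, the integrin chain CD11b. LYZ had 23.7, 28.7 and 20.6 CPM in parental 1 to 3, 4.98 and 3.76 CPM in line 1, and 21.4 and 20.1 CPM in line 2. Line 1 was low and line 2 close to the parental libraries (log2 fold change -2.48 (SE 0.23), edgeR adjusted p 0.00157), and LYZ makes up nearly all of the summed level of the 6 monocyte and granulocyte markers, which was 21.2 to 28.9 CPM in parental cells and 4.50 to 5.41 CPM in line 1. CSF2RB had 16.6, 13.4 and 12.2 CPM in parental 1 to 3, 0.619 and 0.247 CPM in line 1, and 5.83 and 2.99 CPM in line 2. It was low in both edited lines and lowest in line 1 (log2 fold change -5.03 (SE 0.49), edgeR adjusted p 0.00186). CD300A fell from 15.5 to 0.534 CPM and stood at 0.792 CPM in line 2, where it was also called (log2 fold change -4.22, edgeR adjusted p 0.00467). NCF4 and ITGAM fell from 4.98 to 0.537 CPM and from 8.22 to 1.34 CPM, and line 2 lay between at 1.73 and 4.32 CPM. Of the 5 genes, only LYZ was line 1 only, and 2, CSF2RB and CD300A, were called in both lines. The median of the list in line 2 against parental cells was -0.47.

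Integrins and adhesion receptors, which hold cells to matrix and to each other, gave 6 lower and 0 higher of 37 tested (16.2% lower, against 1.27% lower and 0.487% higher over all genes tested; median -0.41). The same background holds for the counts of each list that follows. CD44, the hyaluronan receptor, had 7.43, 10.04 and 3.79 CPM in parental 1 to 3, 0.188 and 0.519 CPM in line 1, and 0.384 and 0.358 CPM in line 2. Both edited lines were below all parental libraries (log2 fold change -4.30 (SE 0.59), edgeR adjusted p 0.00982). SELPLG, the selectin ligand of leukocytes, fell from 11.1 ± 3.32 CPM (3 libraries, SD) to 1.79 ± 0.963 CPM (2 libraries, SD), and ITGA2B, the platelet integrin chain, from 12.5 ± 1.91 CPM (3 libraries, SD) to 2.86 ± 0.971 CPM (2 libraries, SD); both were line 1 only. L1CAM and the poliovirus receptor PVR had log2 fold changes of -3.72 and -1.71. Megakaryocyte and platelet genes gave 3 lower of 25 (median -0.30): ITGA2B, the vessel growth factor ANGPT1 (-1.15) and ARHGAP6 (-1.07).

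Erythroid genes did not move as 1 block. Of 45 tested, 1 was higher and 2 lower (median -0.17). CD36, a fatty acid and thrombospondin receptor found on erythroid precursors, platelets and monocytes, had 0.0543, 0.0179 and 0.0152 CPM in parental 1 to 3, 3.74 and 6.41 CPM in line 1, and 0.288 and 0.281 CPM in line 2. It was under the floor of 3 counts in every parental library and well above it in both line 1 libraries (log2 fold change 7.49 (SE 0.56), edgeR adjusted p 0.000433), with line 2 in between at a much lower level and also called. SLC4A1, the anion exchanger of the red cell membrane, fell from 2.26 ± 1.55 CPM (3 libraries, SD) to 0.204 ± 0.0608 CPM (2 libraries, SD), and KEL, the Kell blood group protease, from 134 ± 14.1 CPM (3 libraries, SD) to 70.4 ± 17.5 CPM (2 libraries, SD). The globin genes HBG1 and HBG2 had positive log2 fold changes of 1.17 and 1.23 that did not pass (edgeR adjusted p 0.196 and 0.188), and their parental 3 values were the highest of the parental group. The erythroid regulators GATA1, TAL1 and KLF1 stood at -0.24, -0.06 and -0.26 (edgeR adjusted p 0.486, 0.913 and 0.595).

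Blood transcription factors gave 1 higher and 1 lower of 28 (median -0.11). TLE4, a Groucho corepressor, had 19.9, 28.1 and 13.9 CPM in parental 1 to 3, 0.269 and 0.173 CPM in line 1, and 0.0686 and 0.0256 CPM in line 2. All line 1 and line 2 libraries were at or below 0.269 CPM (log2 fold change -6.54 (SE 0.48), edgeR adjusted p 0.000390). ARHGAP15, which switches off Rac, had 15.5, 14.3 and 7.85 CPM in parental 1 to 3, 0 and 0.0495 CPM in line 1, and 0.0549 and 0 CPM in line 2. It had 2 counts in line 1, 462-fold (95% counting interval 128 to 3817) below the parental level, and was as low in line 2. ARHGAP4, ARHGEF40, ARHGEF6 and ARHGAP6 had log2 fold changes of -2.39, -1.91, -1.69 and -1.07, all line 1 only, and ARHGAP28 rose from 0.452 to 3.78 CPM.

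Cytokine receptors and JAK-STAT genes gave 2 lower and 2 higher of 43 (median -0.12). SOCS3 (ENSG00000184557), the feedback inhibitor of JAK-STAT signalling, had 22.3, 20.9 and 23.1 CPM in parental 1 to 3, 94.5 and 81.2 CPM in line 1, and 29.1 and 27.4 CPM in line 2. Both line 1 libraries were above all others (log2 fold change 1.99 (SE 0.14), edgeR adjusted p 0.000306). IL1R1, the interleukin-1 receptor, rose from 1.27 ± 0.0956 CPM (3 libraries, SD) to 6.02 ± 0.119 CPM (2 libraries, SD) and was also higher in line 2. IFNGR2, a chain of the interferon gamma receptor, fell from 42.8 ± 4.09 CPM (3 libraries, SD) to 25.4 ± 1.47 CPM (2 libraries, SD). HLA class I and antigen presentation genes gave 2 lower of 13 (median -0.73), the adjacent genes PSMB9, an immunoproteasome subunit (-4.05), and TAP1, a peptide transporter (-1.54). Interferon-stimulated genes gave 1 higher, the helicase gene DDX60 (5.03), and 1 lower, IFITM2, of 30 (median -0.37). IFITM2 fell in counts, from 97.2 ± 11.2 CPM (3 libraries, SD) to 51 ± 7.56 CPM (2 libraries, SD) (edgeR adjusted p 0.0239), but rose from 436 to 562.2 in mean FPKM, the authors' length-scaled values. IFITM1 to IFITM3 are close copies whose reads the counting could split, so its direction is uncertain.

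Lysosome and endocytosis genes gave 4 lower and 1 higher of 44 (median -0.04). The cathepsins CTSS and CTSB fell from 22.2 to 5.74 CPM and from 145 to 82.8 CPM, line 1 only. The Rab5 activator RIN3 fell from 9.24 to 0.280 CPM and was low in both lines. Eicosanoid and phospholipid enzymes gave 3 lower of 29 (median -0.30). PLCB4, a phospholipase C, had 0 counts in line 1 and was at least 38.2-fold lower, taking 3 counts over the group as floor, PLA2G4A, which releases arachidonic acid, stood at -3.41, and PLCB2 is given above. Semaphorin and axon guidance genes gave 3 lower of 34 (median -0.29), namely PLXNA2, DPYSL2 (-2.69) and SEMA4D (-2.69). Only PLXNA2 was line 1 only, and DPYSL2 and SEMA4D were also called lower in line 2 (-3.35 and -3.69). In line 2 the list gave 7 lower (median -0.30). WNT pathway genes gave 3 lower of 32 (median -0.06), TLE4 and the ligands WNT5B (-1.68) and WNT11, which fell from 0.605 to 0.0124 CPM. The ADAM and ADAMTS proteases gave 4 lower of 23 (median -0.16), and the extracellular matrix genes COL18A1 (-1.35) and LAMB1 (-1.35) were the 2 lower of 23 (median -0.42).

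**Figure D4:**
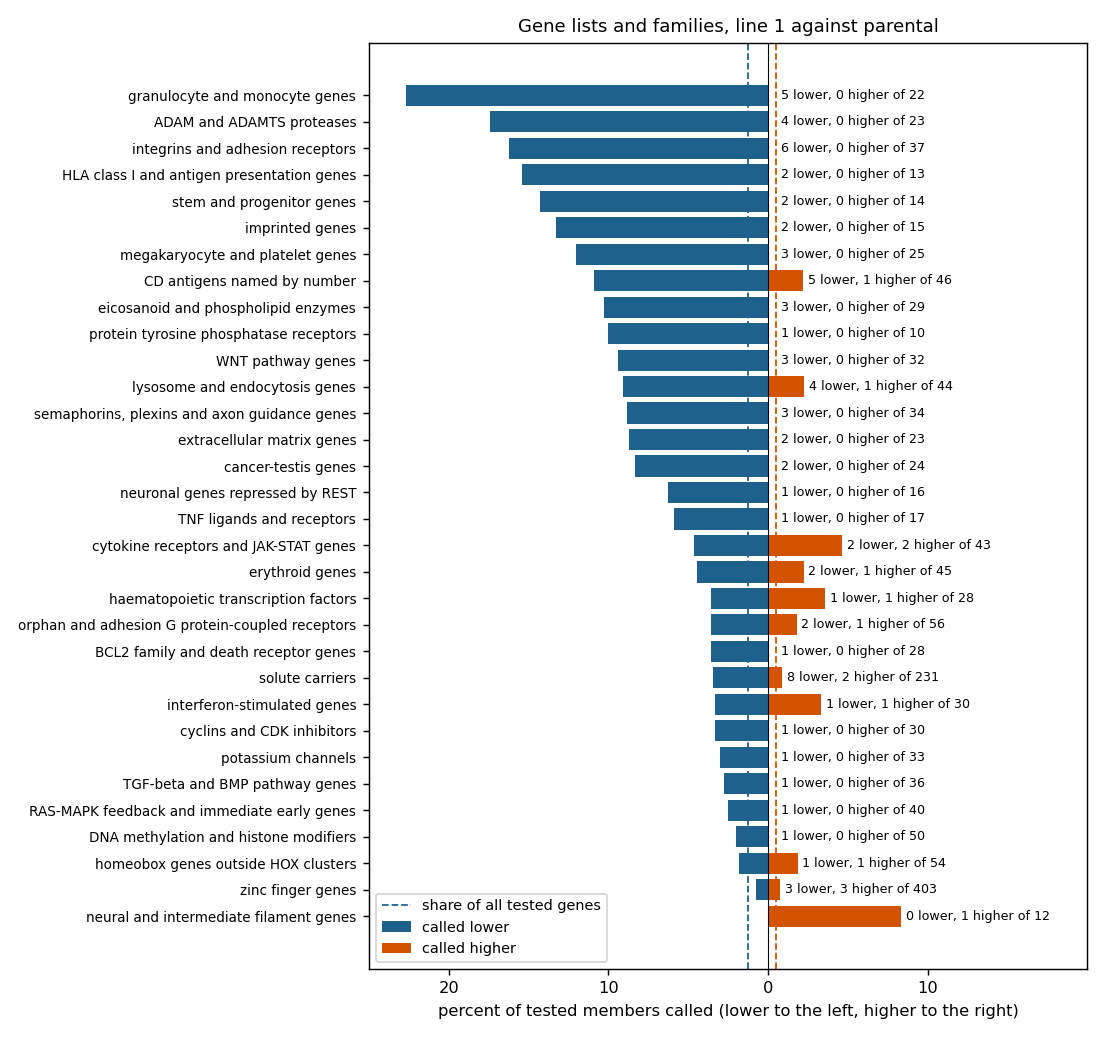
Percent of the tested members of each list or gene family called lower (blue, to the left) or higher (orange, to the right) in line 1; lists with at least 10 tested members and at least 1 call are drawn, 1 list left out, with their counts, and dashed lines mark the shares over all genes tested (1.27% and 0.487%). Granulocyte and monocyte genes have the longest bar to the left, 5 of 22, and zinc finger genes, 3 lower and 3 higher of 403, lie near the background.

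Of the large families, zinc finger genes lay near the background. They gave 3 lower and 3 higher of 403 (median 0.06), among them ZNF558, which had 14.2, 14.8 and 15.3 CPM in parental 1 to 3, 0.215 and 0.124 CPM in line 1, and 0 and 0 CPM in line 2. Line 1 stayed at or below 0.215 CPM and line 2 had 0 counts (log2 fold change -6.43 (SE 0.38), edgeR adjusted p 0.000286). Solute carriers gave 8 lower and 2 higher of 231 (median -0.01). SLC27A6, a fatty acid transporter, had 5.32, 7.28 and 5.20 CPM in parental 1 to 3, 0 and 0.0495 CPM in line 1, and 2.44 and 2.15 CPM in line 2. Its level in line 1 rested on 2 counts, 231-fold (95% counting interval 63.8 to 1912) below the parental level. CD antigens named by number gave 5 lower and 1 higher of 46 (median -0.44).

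Of 57 lists and families, 23 held no called gene in edgeR's quasi-likelihood test. A list without a call is not thereby shown to be unchanged, since many 2-fold changes were missed in simulated counts. The LSD1 complex and its recruiters gave 0 calls of 19 (median -0.06). S phase and mitosis genes gave 0 calls each (medians 0.14 and 0.14), as did the cholesterol synthesis (0.11), heat shock (-0.21), HOX cluster (-0.17) and NOTCH lists (-0.04). Relative to the mean of parental 1 and 2, cholesterol synthesis genes stood 0.82 and 0.65 higher in the line 1 libraries (mean log2 CPM). Heat shock genes stood 0.29 and 0.61 higher. Parental 3 was higher still for both lists, by 1.34 and 0.92, and its part in their medians was not tested. The 13 mitochondrially encoded genes all had positive log2 fold changes (median 0.53) and 43 of 50 ribosomal protein genes negative ones (median -0.22), with no member called. Parental 3 was low for the former and high for the latter relative to parental 1 and 2, by -0.95 and 0.32 on the log2 scale, and its part in these medians was not tested. T and B cell markers gave 0 calls of 5 and epithelial and stromal markers 0 of 9.

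Several transcripts went from a clear parental level to 0 or few counts in line 1. GS1-600G8.3 (ENSG00000231216), an antisense RNA gene on the short arm of the X chromosome, had 57.4, 51.4 and 43.1 CPM in parental 1 to 3, 0 and 0 CPM in line 1, and 107 and 70.1 CPM in line 2. Taking 3 counts over the line 1 group as floor, it was at least 1276-fold lower in line 1 than in parental cells, while line 2 lay above all parental libraries. RP11-142G7.2, a long intergenic RNA gene on the same arm, was likewise at 0 counts and at least 293-fold lower. Its neighbour GS1-600G8.4 had 1 count in line 1, 1078-fold (95% counting interval 193 to 42613) below the parental level. C11orf21 had 0 counts (at least 115-fold lower), and the adjacent ASCL2 and TSPAN32 fell as well, TSPAN32 from 15.9 ± 12.6 CPM (3 libraries, SD) to 0.116 ± 0.0114 CPM (2 libraries, SD). C11orf21 and TSPAN32 overlap on opposite strands, and since no source used here gives the strand mode of the counting, their reads cannot be told apart.

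DCAF8L1 and MAGEB10, neighbouring testis-expressed genes, and LDB2, a LIM domain binding cofactor, had 0 counts in line 1 and in line 2. They were at least 93.1-fold, 52.2-fold and 79.8-fold lower in line 1. NKX6-3, a homeobox gene, went from 2.28 CPM to 2 counts in line 1, 90.8-fold (95% counting interval 24.9 to 752) lower, and had 1.97 CPM in line 2. RP11-1L9.1, a long intergenic RNA gene, was at least 78.8-fold lower in line 1 only, and the non-coding gene ENSG00000233968 on 10p fell from 3.63 to 0.127 CPM.

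The rises in line 1 only included BTNL9 (ENSG00000165810), a butyrophilin-like member of the immunoglobulin superfamily. It had 29.7, 24.8 and 18.5 CPM in parental 1 to 3, 252 and 258 CPM in line 1, and 16.3 and 10.8 CPM in line 2. Line 1 was about an order of magnitude above the parental libraries and line 2 below them (log2 fold change 3.39 (SE 0.23), edgeR adjusted p 0.000286). CT55, a cancer-testis gene on the X chromosome, had 2.98, 2.26 and 2.52 CPM in parental 1 to 3, 21.7 and 24.2 CPM in line 1, and 1.92 and 1.66 CPM in line 2. Its line 1 libraries were well above all others (log2 fold change 3.15 (SE 0.23), edgeR adjusted p 0.000390). S1PR3, a receptor for sphingosine 1-phosphate, had 1.55, 1.17 and 1.42 CPM in parental 1 to 3, 10.8 and 8.68 CPM in line 1, and 0.755 and 0.460 CPM in line 2. It rose in line 1 (log2 fold change 2.82 (SE 0.31), edgeR adjusted p 0.00328) and was below the parental range in line 2. PRDM9, the histone methyltransferase that positions meiotic recombination, had 0.0271, 0.126 and 0.0909 CPM in parental 1 to 3, 6.72 and 3.22 CPM in line 1, and 0.384 and 0 CPM in line 2. It was at or below 0.384 CPM in every library outside line 1 (log2 fold change 5.81 (SE 0.93), edgeR adjusted p 0.0190).

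IMPA2, an inositol phosphatase, rose from 1.35 ± 0.681 CPM (3 libraries, SD) to 14.3 ± 0.443 CPM (2 libraries, SD). TMEM158, a RAS-induced membrane protein, rose from 2.30 ± 0.653 CPM (3 libraries, SD) to 14.3 ± 5.25 CPM (2 libraries, SD), and C3orf52 from 0.365 ± 0.0538 CPM (3 libraries, SD) to 3.60 ± 0.370 CPM (2 libraries, SD). These 3 were line 1 only, with edgeR adjusted p-values of 0.00461, 0.00743 and 0.0219. The entry hsa-mir-490 rose from 1.03 to 11.1 CPM; poly-A libraries read longer transcripts over that locus, so the value is not a level of the mature microRNA. RP11-649A16.1 rose from 0.0150 to 2.56 CPM. Its parental level rested on 1, 1 and 0 counts in parental 1 to 3. The ratio of 203 had a counting interval of 55.6 to 1691. Line 2 had 0.206 and 0.0767 CPM (15 and 3 counts), above every parental library. The gene was not called in line 2 against parental cells (log2 fold change 3.30, edgeR adjusted p 0.0639).

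Genes with a solid parental level rose by smaller factors. KIF21A, a kinesin, had 39.7, 39.99 and 41.6 CPM in parental 1 to 3, 92.7 and 101 CPM in line 1, and 32.2 and 34.8 CPM in line 2. The line 1 values were more than 2-fold above the others (log2 fold change 1.26 (SE 0.13), edgeR adjusted p 0.00206). SERPINB9, the inhibitor of granzyme B, rose from 61.4 ± 9.39 CPM (3 libraries, SD) to 132 ± 8.10 CPM (2 libraries, SD), ST6GAL1, a sialyltransferase, from 116 ± 13.3 CPM (3 libraries, SD) to 256 ± 42.6 CPM (2 libraries, SD), and ANXA1, annexin A1, from 512 ± 54.3 CPM (3 libraries, SD) to 874 ± 33.8 CPM (2 libraries, SD). Their log2 fold changes were 1.10, 1.15 and 0.77, and line 2 means were 67.9, 126 and 464 CPM.

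Among genes called in both lines, DLK1 (ENSG00000185559), an imprinted surface protein related to NOTCH ligands, had 502, 679 and 390.7 CPM in parental 1 to 3, 68 and 48.5 CPM in line 1, and 135 and 82.7 CPM in line 2. Both lines were below every parental library (log2 fold change -3.17 (SE 0.32), edgeR adjusted p 0.00206; line 2 -2.27, edgeR adjusted p 0.00353). CCND1, cyclin D1, had 45.9, 51.2 and 20.5 CPM in parental 1 to 3, 4.22 and 4.38 CPM in line 1, and 4.47 and 1.41 CPM in line 2. It was lower in both lines to a similar degree (-3.19 in line 1 and -3.70 in line 2). PLXDC2 had 4.94, 4.95 and 1.18 CPM in parental 1 to 3 (edgeR adjusted p 0.0293). Its 2 counts in line 1 lay 131-fold (95% counting interval 36.1 to 1086) below the parental level. TMEM154 had 50.7, 29.8 and 4.77 CPM in parental 1 to 3 and a mean of 0.620 CPM in line 1 (edgeR adjusted p 0.0459). SETD7, a lysine methyltransferase, stood at -2.33 in line 1 and -4.58 in line 2. MS4A4A, a tetraspanning protein of macrophages and mast cells, fell from 112 ± 19.2 CPM (3 libraries, SD) to 29 ± 0.552 CPM (2 libraries, SD) and stood at 61.9 ± 1.11 CPM (2 libraries, SD) in line 2. Shared rises were fewer. ANKRD44 had 0.0543, 0.233 and 0.637 CPM in parental 1 to 3, 9.36 and 9.40 CPM in line 1, and 25.7 and 23.4 CPM in line 2. Line 2 was the highest group and line 1 intermediate (log2 fold change 4.80 (SE 0.55), edgeR adjusted p 0.00382). DPF3, a chromatin remodelling subunit, rose from 1.32 to 6.38 CPM, NES, the intermediate filament protein nestin, from 10.8 to 32.6 CPM, and AC073236.3 from 0.239 to 2.84 CPM. Because the same parental libraries enter both comparisons, a shared call is not an independent repeat.

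The 24 genes called in opposite directions were 13 lower in line 1 and higher in line 2, and 11 the reverse. RELN, the secreted glycoprotein reelin, had 279, 336 and 269.9 CPM in parental 1 to 3, 81 and 81.1 CPM in line 1, and 565 and 563 CPM in line 2. Parental cells lay between the 2 lines (log2 fold change -1.86 (SE 0.15), edgeR adjusted p 0.000835; line 2 0.93, edgeR adjusted p 0.00588). COL23A1, a membrane collagen, stood at -3.77 in line 1 and 1.85 in line 2, and LAMB1, a laminin chain, at -1.35 and 1.56. ARAP3, a PI3K effector that regulates Arf, stood at -1.84 and 2.16, and MERTK, a receptor for apoptotic cell ligands, at -1.32 and 1.10. In the other direction DDX60L, a helicase-like gene, had 3.31, 2.49 and 1.62 CPM in parental 1 to 3, 18 and 13.2 CPM in line 1, and 0.275 and 0.102 CPM in line 2. Line 1 was highest and line 2 lowest without overlap (log2 fold change 2.66 (SE 0.38), edgeR adjusted p 0.0118). GPR126, an adhesion receptor, stood at 1.34 and -4.39. CHST3, a sulfotransferase, had 1.0, 0.664 and 1.12 CPM in parental 1 to 3, 0.0269 and 0 CPM in line 1, and 13.7 and 8.15 CPM in line 2. Its line 1 level rested on 1 count, 72.4-fold (95% counting interval 12.8 to 2879) below the parental level and 915-fold (95% counting interval 164 to 36159) below line 2.

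By position, the short arm of chromosome 8 held the highest share of called lower genes. There, 22 of 212 tested genes were lower (10.4%, against 1.27% over all genes tested), 18 of them line 1 only, and the arm's median log2 fold change was -0.59 in line 1 and -0.07 in line 2. Its falls included FGFR1, the cathepsin CTSB, the kinase PTK2B, the steroid transport gene STAR (122 to 37.3 CPM) and ASH2L, a subunit of histone H3 lysine 4 methyltransferases (301 to 178 CPM). DPYSL2 and NKX6-3, given above, were also 8p falls, as was ADAM3A, 1 of the ADAM proteases. Called higher genes on 8p numbered 3 (1.42%, against 0.487% over all genes tested). On the short arm of the X chromosome 18 of 245 were lower (7.35%, median -0.29; line 2 median 0.05), 11 of them line 1 only, including WAS, the translation factor subunit EIF2S3 (816 to 433 CPM) and OFD1 (84.4 to 49.8 CPM). On 21q 8 of 194 were lower (4.12%, median -0.38, line 2 median 0.04) and 1 was higher (0.515%). The 21q falls included IFNGR2 and COL18A1, given above. The highest shares of called higher genes were 3 of 94 on 18p (3.19%), 9 of 373 on Xq (2.41%) and 9 of 524 on 3q (1.72%), against 0.487% over all genes tested. Called lower genes on these arms numbered 2 on 18p (2.13%), 9 on Xq (2.41%) and 3 on 3q (0.573%), so Xq held as many of one direction as of the other. On 19q 11 of 668 were higher (1.65%) and 6 lower (0.898%), with a median of 0.38 in line 1 and 0.28 in line 2. On 19p, where line 2 had a median of -0.74, line 1 stood at -0.06. Copy number was not measured in these libraries, and its part in the arm medians was not tested.

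**Figure D5:**
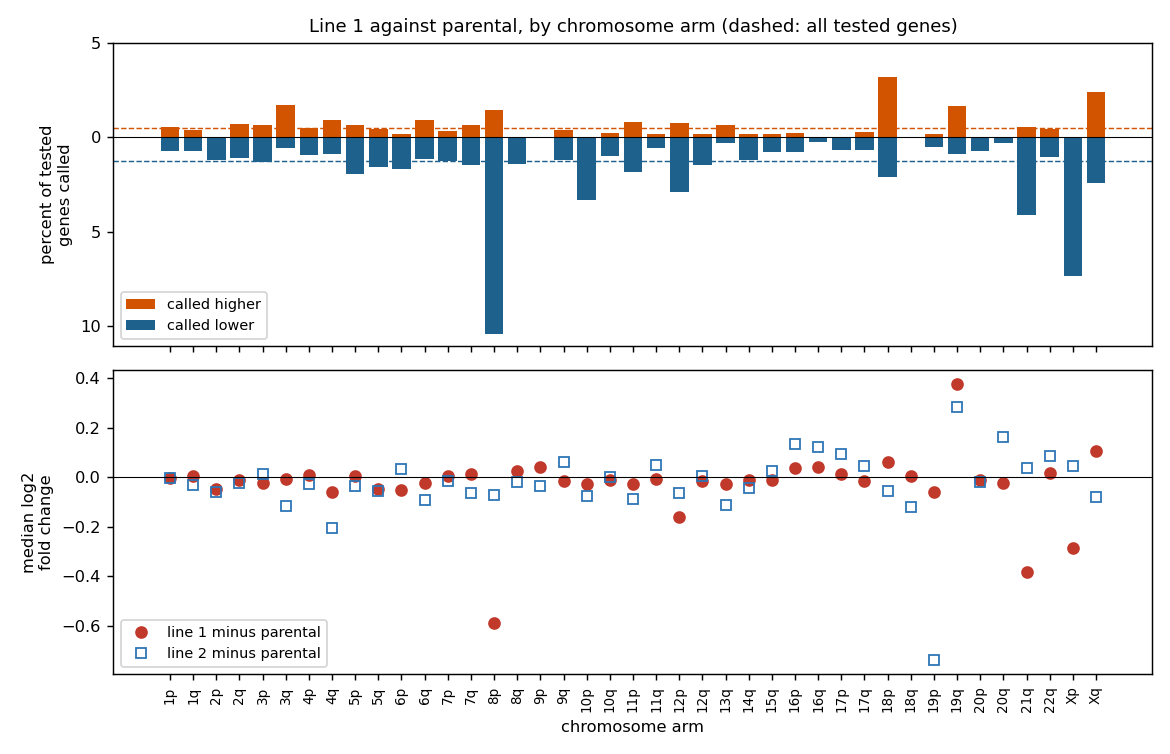
Chromosome arms in order along the horizontal axis. The upper panel gives the percent of tested genes called higher (up) or lower (down) in line 1 with the shares over all genes dashed, and the lower panel the median log2 fold change against parental cells in line 1 (filled) and line 2 (open), which use the same parental libraries; 8p, Xp and 21q lie low in line 1 and 19p in line 2.

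Called genes also lay next to each other. Of 18222 tested genes placed on an arm, 328 were called, and 55 of these fell in 26 runs of adjacent tested genes called in the same direction. Some runs are overlapping entries on the same strand, such as TTLL7 with TTLL7-IT1, COL23A1 with CTB-26E19.1 and RP11-649A16.1 with RNU6-505P. How many runs the share of called genes alone would give was not tested. Runs of 3 were ASCL2, C11orf21 and TSPAN32 on 11p, IFT27, NCF4 and CSF2RB on 22q, and ENSG00000233968, PLXDC2 and NEBL on 10p. Other runs were PSMB9 with TAP1, DDX60 with DDX60L, CYP3A5 with CYP3A43 and SDC2 with CPQ. Of 11 pairs of called genes that overlap each other, 4 are on opposite strands (C11orf21 with TSPAN32, CRYZL1 with ITSN1, PSMB9 with TAP1, ASH2L with STAR), and for these the calls of both members are uncertain.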

How the data were processed

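RNA of K562 cells was measured in 7 libraries. Per the labels' protocols, the libraries were stranded TruSeq libraries of poly-A RNA, with reads of 150 cycles in pairs. The submitters' processing notes name STAR 2.7.3a, HTSeq 0.11.2, Cufflinks 2.2.1 and DESeq2, and the builds GRCh37 and hg19; no source used here gives the strand mode. The authors deposited raw read counts for 57773 genes, and a table of FPKM values, fragments scaled to gene length and depth, in which 114 repeated identifiers were summed and 20 count identifiers were absent. The authors' normalized counts and comparison tables were not used.

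The count test was that of edgeR 4.0.16 (R 4.3.3; filterByExpr, 19098 genes kept; TMM; quasi-likelihood test, 3 groups in 1 fit; Benjamini-Hochberg adjustment at 0.05). The standard error is the log2 fold change divided by the square root of F. A floor of 3 counts was 0.0412 to 0.0814 CPM per library and 0.0387 CPM over line 1; floors and counting intervals (95%, exact) cover counting error only. A fold against a group at 0 counts is a bound set by 3 counts over the group.

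The members, the 40 lists and 17 name families (1484 of 1488 symbols matched) and the naming rule were chosen with earlier results of these data known. The rule named, among called genes with a fold of at least 2, at least 2 CPM in the higher group and no overlap, the 12 largest protein-coding rises and falls, 10 each way in line 1 only, 5 in both lines, 6 in opposite directions, up to 4 members per list, KDM1A, and 3 arms each way. Some genes and lists are not reported here. Other genes were picked after their values were seen, and arms outside those 6 likewise. Medians of lists did not move with genes of 0 counts at their bound. Arms and neighbours came from GENCODE 29 (GRCh38), used for order only. Simulated counts with known changes in genes of at least 2 CPM were used to test these steps. Of the genes changed 2-fold, 36.8% were recovered, against 87.9% at 4-fold and 98.5% at 8-fold. Of the simulated calls, 6.33% were false. Alternatives were DESeq2 1.42.0 size factors and Wald test, upper quartile scaling, 2 other filters, limma-voom (limma 3.58.1), the 5 libraries alone, limma on log2 FPKM with 2 pseudocounts, the replicate number as a block, and each library left out.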

Additional observations from a re-analysis of the deposited data

Results flagged for a closer look

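The change against parental cells differed between the 2 edited lines for 27 of the genes named by the rule, tested as line 1 against line 2 with edgeR and Benjamini-Hochberg adjustment over all genes. Of the 27, 25 were line 1 only or called in opposite directions, classes that already rest on the 2 lines' calls, so for them the test repeats the choice and is no further evidence; CD36 and ZNF558 are the others. The difference between lines is a difference between cell lines of 1 stated genotype, and which feature of the lines goes with it was not tested.

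Among rises, the log2 fold change of line 1 minus line 2 was 2.75 for IMPA2, 3.28 for TMEM158, 3.68 for CT55, 3.97 for S1PR3, 4.08 for RP11-649A16.1, 4.14 for CD36, 4.23 for BTNL9, 4.51 for PRDM9, 4.72 for hsa-mir-490 and 5.90 for C3orf52. DDX60L and EYS, called in opposite directions against parental cells, stood at 6.25 and 6.46. EYS, a retinal photoreceptor gene, had 0.515, 0.646 and 0.818 CPM in parental 1 to 3, 3.04 and 4.82 CPM in line 1, and 0.0686 and 0 CPM in line 2.

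Among falls, the same difference was -7.48 for TSPAN32, -4.09 for FYB and -3.28 for ENSG00000233968. Against a floor of 3 counts over line 1, the line 1 level was at least 149-fold lower than line 2 for RP11-1L9.1, 166-fold for C11orf21, 588-fold for RP11-142G7.2 and 2439-fold for GS1-600G8.3. ZNF558 differed the other way, at least 6.25-fold higher in line 1 against the floor over line 2, where it had 0 counts. Genes with 1 to 3 counts in the lower line had ratios with 95% counting intervals: line 1 was lower by 74.8 (20.5 to 622) for NKX6-3, 90.8 (24.9 to 754) for SLC27A6, 135 (46.1 to 658) for ANKRD33B, 915 (164 to 36159) for CHST3 and 2175 (390.0 to 85922) for GS1-600G8.4. Line 1 was higher by 184 (62.6 to 897) for LINC01049 and 311 (85.6 to 2576) for RP11-307P5.1. The edgeR adjusted p-values of the 27 ranged from 1.85e-05 to 0.0300.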

How the results depend on the processing

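Calls, higher and lower, for line 1 against parental cells (335 in all) were 930 with DESeq2's Wald test, 213 with limma-voom, 1167 with no filter, 65 with log2(FPKM + 0.1) and 31 with log2(FPKM + 1); higher genes were 300, 81, 382, 25 and 17 of these. The share of higher calls was 27.8%, and 38.0%, 38.5% and 54.8% with voom and the 2 FPKM settings. Line 1 against line 2 (1249) gave 1970 with DESeq2's test, 2158 with no filter, 316 and 250 with the FPKM settings. Line 2 against parental cells (1078) gave 2041, 2477, 272 and 207. Line 1 only (182) gave 370, 408, 46 and 25, and 118 with voom, of which 105, 114, 23, 17 and 60 were higher; both lines (75) gave 269, 403, 15 and 6. Size factors, upper quartile scaling and a mean of at least 2 CPM moved no total for line 1 against parental cells by more than 1.5 times, although a mean of at least 2 CPM left 55 higher genes in place of 93, and the 5 libraries alone gave 248. DESeq2's test shared all 335 genes and voom 204.

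Leaving out each library in turn gave 60 to 931 calls for line 1 against parental cells, 387 to 2344 for line 1 against line 2, 285 to 1848 for line 2 against parental cells, 34 to 440 for line 1 only and 21 to 262 for both lines. The highest of each came without parental 3, and the cause was not tested.

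With the replicate number as a block, which the labels do not state to be a pairing (the 2 pairs of same-numbered parental and line 1 libraries had correlations of deviations of 0.06 and 0.14), the counts were 2280, 3650, 3916, 785 and 882 in the same order. With the same block all 335 genes stayed called.

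Of the 335 genes, the number that kept its direction but was no longer called was 2 with size factors, 24 with upper quartile scaling, 100 with the 5 libraries alone, 131 with voom, 286 with log2(FPKM + 0.1) and 312 with log2(FPKM + 1). It was 30 with a mean of at least 2 CPM, beside the genes that setting removes. Without line 1 library 1 or 2 it was 252 and 275, without parental 1 or 2 it was 193 and 226, and without line 2 library 1 or 2 it was 93 and 86.

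By gene, 2 of the 335 did not keep their direction. IFITM2 reversed to 0.37 on both log2 FPKM scales, and RNU6-505P stood at 0 with log2(FPKM + 1). The balance of higher and lower calls turned with log2(FPKM + 1), also among line 1 only genes (17 higher, 8 lower), and with voom line 1 only genes were 60 higher and 58 lower. The cause was not tested. Depth limits the lowest genes, where 3 counts are 0.0412 to 0.0814 CPM.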

Other observations

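Metabolic and transport genes outside the lists above, picked after their values were seen, were also among the calls. ACSM3, a medium-chain acyl-CoA synthetase, had 684, 829 and 693 CPM in parental 1 to 3, 166 and 83.7 CPM in line 1, and 377 and 194 CPM in line 2. Line 1 was lowest and line 2 lay between (log2 fold change -2.56 (SE 0.36), edgeR adjusted p 0.0108). CMBL, a carboxymethylenebutenolidase-like hydrolase, fell from 243 ± 11.4 CPM (3 libraries, SD) to 98.6 ± 1.39 CPM (2 libraries, SD), TFR2, the second transferrin receptor, from 104 ± 8.05 CPM (3 libraries, SD) to 47.3 ± 1.89 CPM (2 libraries, SD), and CYP3A5, a drug-metabolizing cytochrome, from 14.5 ± 2.71 CPM (3 libraries, SD) to 2.49 ± 0.202 CPM (2 libraries, SD). These 3 were line 1 only, with edgeR adjusted p-values of 0.00220, 0.00810 and 0.00400. PYGL, liver glycogen phosphorylase, fell from 40.3 to 7.88 CPM and stood at 16.5 CPM in line 2. GLUD2, a glutamate dehydrogenase, rose from 1.08 to 4.58 CPM; it is a near copy of the abundant GLUD1, so its count is uncertain.

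Mean FPKM did not move in the direction of the counts for 2 of the 335 called genes, IFITM2, described above, and RNU6-505P, a small RNA pseudogene listed at 0 FPKM in both groups.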
